A study of Mus musculus with 20 samples.

Results

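Bcl11b and Foxp3 sites were compared within wild-type (WT) regulatory T cells (Treg). The 3 region lists used are named as Bcl11b-specific, common and Foxp3-specific, and are here called Bcl11b-only, shared and Foxp3-only. The members are all distinct regions of those lists by chromosome, start and end, 16747 regions of the 22081 in the series. The lists held 2497 Bcl11b-only regions, 4738 shared regions and 9512 Foxp3-only regions, which are 14.9%, 28.3% and 56.8% of the total. Chromatin immunoprecipitation and sequencing (ChIP-seq) was done on C57BL/6 mouse cells sorted as CD4+YFP+ from draining lymph nodes and spleen. The genotype of these cells is Foxp3-IRES-YFP-Cre, in which YFP and Cre are made from the Foxp3 gene, so every WT cell used here carries that allele. Bcl11b was precipitated in 3 libraries and Foxp3 in 2, beside 3 input libraries of the same cells. Lists of other cells are used only to see where a region was called again: Treg with Bcl11b f/f Foxp3-IRES-YFP-Cre, which lack Bcl11b, CD4+GFP+ KIKO cells of genotype Foxp3-GFPKO, which lack Foxp3, and WT cells labelled Tn, whose labels give the same sort and genotype as the WT Treg. The labels do not say that the libraries came from separate mice. Each list belongs to a comparison of a pair of groups and gives positions in mm10 with no score, count or replicate value. Expression of cell type markers could therefore not be checked, and a region that is not listed may lie under the threshold of the call.

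Foxp3 is the forkhead transcription factor that defines Treg, and it binds together with other factors at genes of activation and tolerance. Bcl11b is a zinc-finger factor that commits precursors to the T lineage and that stays expressed in mature T cells. It recruits corepressor complexes such as NuRD and can also act at active promoters and enhancers. Site maps of this kind are read by place, since promoters at gene starts and enhancers inside or between genes are used differently.

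The promoters below, 3 with a shared region and 2 with a Foxp3-only region, were chosen for display after their matches were seen. At the 35 genes described below, regions overlap 16 promoter windows, and 4 of these hold a match in the 250 bases before the start to any of the 3 motifs below, all of them printed. Of the 11 such windows with a shared region alone, 2 hold an ETS match, those of Mcl1 and Nr4a1, so the other 9 are like Ctla4 in holding none. Each line gives the 250 bases before a gene start, 5′ to 3′ on the strand of the gene, from RefSeq, assembly GRCm38.p6, which has the coordinates of mm10. Capitals mark matches to the ETS motif CCGGAA or the forkhead motif TGTTTAC on either strand, and the RUNX motif TGTGGTT was also searched. Mcl1 (chr3:95658471-95658720, plus strand), a survival gene of the Bcl2 family, has ETS matches that begin 63 and 30 bases before its start. Nr4a1 (chr15:101266596-101266845, plus strand), a nuclear receptor gene induced by antigen receptor signals, has 1 ETS match 125 bases before its start. The shared regions of both genes cover these matches. Ctla4 (chr1:60908775-60909024, plus strand), the gene of an inhibitory receptor, has a shared region at its start and no match to the 3 motifs. Socs1 (chr16:10785537-10785786, minus strand), an inhibitor of cytokine signalling, has 3 ETS matches, all outside the Foxp3-only region at its start. Prdm1 (chr10:44458749-44458998, minus strand), which encodes the repressor Blimp1, has a forkhead match 231 bases before its start and inside a Foxp3-only region.
Mcl1: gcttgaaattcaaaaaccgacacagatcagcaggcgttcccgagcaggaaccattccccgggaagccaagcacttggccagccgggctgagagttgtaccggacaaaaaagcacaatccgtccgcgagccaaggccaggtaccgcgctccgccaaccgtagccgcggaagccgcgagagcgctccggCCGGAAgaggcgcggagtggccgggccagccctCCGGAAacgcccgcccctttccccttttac
Nr4a1: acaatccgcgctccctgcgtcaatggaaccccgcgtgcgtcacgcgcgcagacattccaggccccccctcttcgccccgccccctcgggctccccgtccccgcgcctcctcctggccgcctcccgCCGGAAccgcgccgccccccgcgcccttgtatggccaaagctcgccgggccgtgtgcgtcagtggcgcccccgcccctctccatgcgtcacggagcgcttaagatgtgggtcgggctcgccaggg
Ctla4: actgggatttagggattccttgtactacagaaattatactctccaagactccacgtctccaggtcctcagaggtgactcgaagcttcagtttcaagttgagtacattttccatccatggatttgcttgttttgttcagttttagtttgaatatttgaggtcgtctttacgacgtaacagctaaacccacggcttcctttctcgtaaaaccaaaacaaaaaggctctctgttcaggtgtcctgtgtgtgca
Socs1: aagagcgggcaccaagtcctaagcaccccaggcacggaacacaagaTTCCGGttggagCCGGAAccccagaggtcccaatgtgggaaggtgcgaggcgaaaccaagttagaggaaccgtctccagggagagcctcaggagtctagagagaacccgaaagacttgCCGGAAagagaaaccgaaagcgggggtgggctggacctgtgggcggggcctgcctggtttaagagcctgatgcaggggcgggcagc
Prdm1: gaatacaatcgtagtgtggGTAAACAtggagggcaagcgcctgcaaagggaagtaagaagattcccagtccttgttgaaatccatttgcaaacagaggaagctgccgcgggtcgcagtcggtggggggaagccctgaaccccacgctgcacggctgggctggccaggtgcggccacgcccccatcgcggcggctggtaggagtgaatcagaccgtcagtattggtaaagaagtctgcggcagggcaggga

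The shared class was made of regions with different support. Shared regions were 65.5% of the 7235 Bcl11b regions (Wilson 95% interval 64.4 to 66.6, counting error only) and 33.2% (32.5 to 34) of the 14250 Foxp3 regions. Each factor had a most frequent region width, 198 bp for 93.6% of Bcl11b-only regions and 220 bp for 53.2% of Foxp3-only regions. Shared regions were wider, with a median of 292 bp, but 405 of them had exactly 198 bp and 711 exactly 220 bp. The same WT Treg libraries were also set against other cells in the series, and those lists show which factor was called again. Of the shared regions, 2352 (49.6%) were listed there for both factors, 1752 (37%) for Foxp3 alone, 611 (12.9%) for Bcl11b alone and 23 for neither. All 405 shared regions of 198 bp were among those listed elsewhere for Bcl11b alone. Of the 711 shared regions of 220 bp, 677 were listed elsewhere for Foxp3 alone and 33 for both factors. The rule by which a region was put in the shared list is not given in the sources used here, so whether a shared region means a peak called in both sets cannot be told for these. Some single-factor regions were also listed elsewhere for the other factor. In the comparison with Tn cells, 351 Foxp3-only regions were listed for Bcl11b in both cell types and 12 in WT Treg alone. With KIKO cells these numbers were 108 and 58, so Foxp3-only does not mean free of Bcl11b calls.

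Most Bcl11b-only regions lay away from gene starts, while shared regions gathered there, with much less contrast among wide regions. A transcription start could be given to 13462 regions (80.4%), those whose nearest protein-coding gene has a start in the RefSeq promoter table, which covers 79.9% of 21887 genes and none on chromosome 18. Within 1 kb of a start lay 2288 of 3808 shared regions (60.1%), 3586 of 7655 Foxp3-only regions (46.8%) and 227 of 1999 Bcl11b-only regions (11.4%). The odds ratio of lying at a start, against shared regions, was 0.0851 (95% interval 0.0727 to 0.0993) for Bcl11b-only regions (Fisher's exact test, two-sided, Benjamini-Hochberg adjusted over 4 tests, p = 3.8e-307). For Foxp3-only regions it was 0.586 (0.541 to 0.634, exact adjusted p = 1.1e-40). Elsewhere inside a gene lay 54.7% of Bcl11b-only, 32.2% of Foxp3-only and 23.5% of shared regions, with odds ratios of 3.93 (3.5 to 4.42, exact adjusted p = 8.1e-123) and 1.55 (1.41 to 1.69, exact adjusted p = 2.2e-22) against shared. These tests compare listed regions, not conditions, and count neighbouring regions of a gene as if they were independent. Among regions wider than 220 bp, 51.5% of 134 Bcl11b-only regions lay at a start, against 63.5% of shared and 53.9% of Foxp3-only regions. The Bcl11b-only odds ratio at a start was 0.611 there (unadjusted exact p = 0.0059). Inside a gene it was 1.42 (0.936 to 2.12, unadjusted exact p = 0.084), so the call inside genes ended there.

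**Figure D1:**
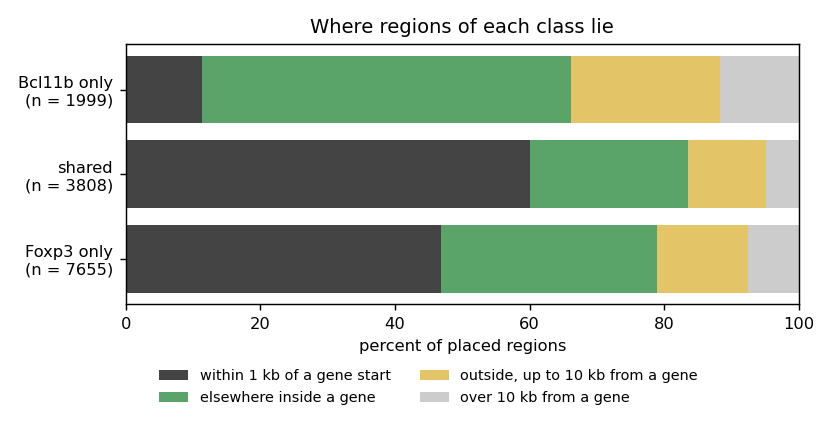
Share of placed regions by position for each class (horizontal bars, percent of the regions with a gene start, n beside each bar). Positions within 1 kb of a start make up 60.1% of shared and 11.4% of Bcl11b-only regions, and positions elsewhere inside a gene make up 54.7% of Bcl11b-only regions.

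The region centres sat close to starts within that 1 kb. The median distance from the nearest start was 334 bp in the shared class, 1356 bp with Foxp3 only and 8693 bp with Bcl11b only. Of the regions at a start, 53.8% (shared), 41.9% (Foxp3-only) and 23.3% (Bcl11b-only) were centred within 100 bp of it. Centres before the start made up 59.6% of both shared and Foxp3-only start regions and 41.9% of Bcl11b-only ones. Starts in divergent pairs of genes, which share a promoter, accounted for 12.7% (11.4 to 14.1) of the shared start regions, 8.92% (8.03 to 9.9) of the Foxp3-only ones and 5.73% (3.38 to 9.55) of the Bcl11b-only ones, and such pairs hold 8.48% of genes with a start.

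The lists thinned out sharply at 20 kb from gene starts. In bins of 2 kb, 437 placed regions lay 18 to 20 kb from a start and 61 lay 20 to 22 kb from one, and the drop was seen in each of the 3 classes. Over 20 kb from any annotated gene end or start were only 126 of all 16747 regions (0.752%). No such limit is given in the sources used here. Shares by place therefore hold for the listed regions, and distal sites of either factor may be missing from them.

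**Figure D2:**
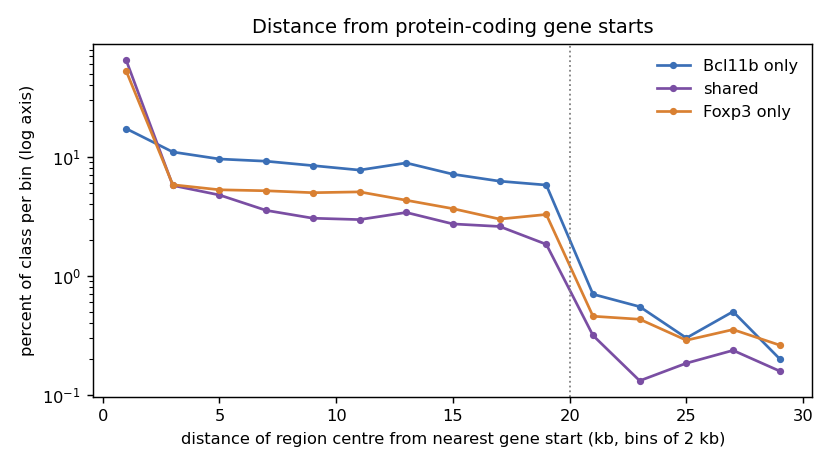
Percent of each class per 2 kb bin of distance from the nearest protein-coding gene start (log axis), with a dotted line at 20 kb. Shared regions start highest, at 65.3% in the first bin, the Bcl11b-only line is the flattest of the 3 up to 20 kb, and all lines drop past it.

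An ETS motif was present in 1097 promoter windows with a shared region and in 991 with a Foxp3-only region, and no test was made of motif shares. The promoter windows, 250 bases before to 50 after each of 21238 starts, were sorted by the class of the region that overlapped them by at least 1 bp. Shared regions overlapped 2291 windows, Foxp3-only regions 3085 and Bcl11b-only regions 101, while 15723 windows had none. CCGGAA or its reverse complement was present in 47.9% (45.8 to 49.9) of shared, 32.1% (30.5 to 33.8) of Foxp3-only and 33.7% (25.2 to 43.3) of Bcl11b-only windows, against 18.7% of all windows and 11.6% of those without a region. ETS factors such as Ets1 are promoter-binding activators of T cells, but a match is not evidence that one bound. Windows with regions were also richer in CpG. The ratio of observed to expected CpG had a median of 0.843 in shared, 0.821 in Foxp3-only and 0.742 in Bcl11b-only windows, against 0.386 without a region. Among windows with a ratio of at least 0.6, a split added after the data were seen, the ETS share was 50.2% of shared, 34.8% of Foxp3-only, 21.5% of windows without a region and 41.9% (31.3 to 53.3) of Bcl11b-only windows. Matches were denser in the part of a window that the region covered. They numbered 3.02 per kb inside and 0.951 per kb outside the region for shared windows, and 1.85 and 0.748 for Foxp3-only windows. Many regions were centred close to the start, and matches at the same positions in windows without a region were not counted. Whether the density goes with the region or with distance from the start was not tested.

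The forkhead motif that Foxp3 and its relatives bind was found in shared and Foxp3-only windows at a share near that of all windows. Among CpG-rich windows its share was higher in both classes than in windows without a region. TGTTTAC or its reverse complement was found in 2.66% (2.08 to 3.41) of shared and 3.6% (3 to 4.32) of Foxp3-only windows, against 3% of all windows. With a CpG ratio of at least 0.6 the motif was in 2.44% (1.85 to 3.21) of shared and 3.36% (2.73 to 4.12) of Foxp3-only windows. In such windows without a region it was in 1.59% (1.29 to 1.96). None of the 101 Bcl11b-only windows held it, which allows a share of up to 3.66% by the Wilson interval. In windows that lay whole inside a region the share was higher, 6.78% (4.22 to 10.7) of 236 shared and 5.05% (2.77 to 9.05) of 198 Foxp3-only windows. A looser spelling was found in 6.93% of Bcl11b-only windows, 7.2% of those with a shared region and 9.47% of those with a Foxp3-only region. The letters TGACCA, known for the related factor BCL11A, were in 14.9% (9.21 to 23.1) of Bcl11b-only, 9.43% of shared, 11.2% of Foxp3-only and 12.5% of all windows. Among CpG-rich windows they were in 18.9% (11.6 to 29.3) of 74 Bcl11b-only, 8.67% of shared and 11% of Foxp3-only windows, against 8.26% without a region. The RUNX motif was in 4.67% (3.88 to 5.61) of shared and 2.79% (2.26 to 3.43) of Foxp3-only windows, against 4.71% of all. Among CpG-rich windows it was in 3.99% (3.22 to 4.94) of shared and 2.24% of Foxp3-only windows, against 2.18% without a region. General promoter elements differed in the class with the higher share. The SP/KLF box GGGCGG was in 72% (70.4 to 73.5) of Foxp3-only and 63.8% (61.8 to 65.8) of shared windows, against 46.2% of all. Among CpG-rich windows it was in 78% (76.4 to 79.6) of Foxp3-only and 67.2% (65.1 to 69.2) of shared windows. In CpG-rich windows without a region it was in 74.9% (73.8 to 76.1), which is above the shared value. The NFY box CCAAT was in 45.8% (44.1 to 47.6) of Foxp3-only and 33.5% (31.6 to 35.4) of shared windows, against 38.2% of all. Among CpG-rich windows it was in 46.1% of Foxp3-only and 33.9% of shared windows, against 32.9% without a region. The CRE motif TGACGTC was in 9.08% (7.97 to 10.3) of shared and 7.71% (6.82 to 8.71) of Foxp3-only windows and in 3.84% of all. The YY1 motif AAGATGG was in 9.38% (8.26 to 10.6) of shared and 7.91% (7.01 to 8.91) of Foxp3-only windows, against 6.24% of all. Among CpG-rich windows it was in 10.1% of shared and 8.18% of Foxp3-only windows, against 5.34% without a region. The NRF1 motif GCATGCG was in 10.9% (6.19 to 18.5) of Bcl11b-only, 7.36% of Foxp3-only and 6.46% of shared windows, against 4.43% of all. Among CpG-rich windows it was in 13.5% (7.51 to 23.1), 8.21% and 6.98%, against 7.46% without a region. The AP-1 motif TGANTCA was in 6.93% (3.4 to 13.6) of Bcl11b-only, 3.71% of shared and 4.57% of Foxp3-only windows, against 6.99% of all. Among CpG-rich windows it was in 3.44% of shared and 3.59% of Foxp3-only windows, against 3.36% without a region. All motifs were searched on both strands, and matches to different motifs may share bases. Regions away from starts could not be searched, since only promoter windows have sequence here.

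**Figure D3:**
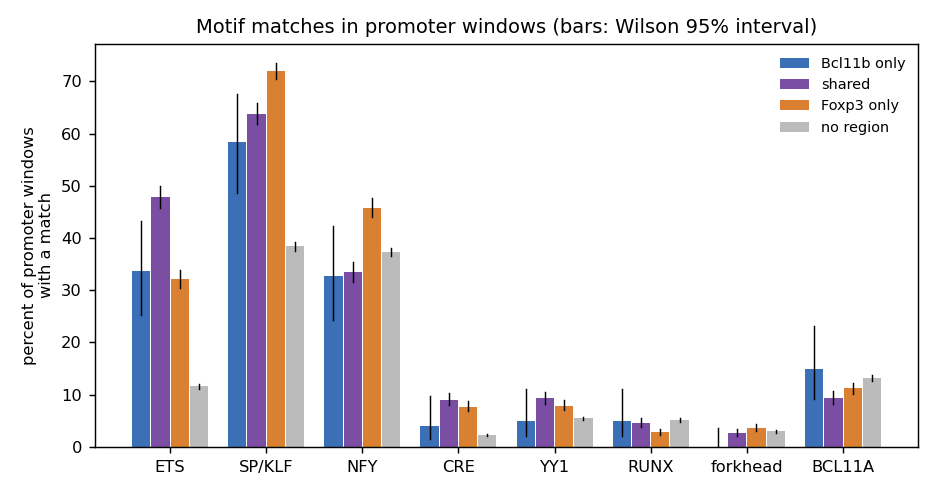
Percent of promoter windows with at least 1 match to each of 8 motifs, by the class of the overlapping region (bars, with Wilson 95% intervals as lines). The ETS bar is highest for shared windows (47.9%), while the SP/KLF and NFY bars are highest for Foxp3-only windows (72% and 45.8%).

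The distance from single-factor regions to the nearest region of the other factor was also measured, with no background share computed. A Foxp3 region lay within 10 kb, centre to centre, of 919 of 2497 Bcl11b-only regions (36.8%, 34.9 to 38.7), with a median distance of 15.4 kb. A Bcl11b region lay within 10 kb of 2738 of 9512 Foxp3-only regions (28.8%, 27.9 to 29.7), with a median of 26.8 kb. That share was 16.9% among regions wider than 220 bp. It was 18.2% among regions listed again elsewhere, where a shared region counted only if listed for both factors. The closest such pairs were 219 and 214 bp apart, the width of about 1 region. Adjacent regions within 5 kb of each other formed 3550 pairs. Of these, 1246 (35.1%) were of Foxp3-only regions, 1187 (33.4%) joined a Foxp3-only with a shared region, 481 (13.5%) were of shared regions and 415 (11.7%) joined a Bcl11b-only with a Foxp3-only region. Pairs of Bcl11b-only regions numbered 56 (1.58%).

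Regions were assigned to the nearest protein-coding gene within 100 kb, which gave 9504 genes (43.4% of all 21887) at least 1 region. A shared region was assigned to 17.3% of genes, a Foxp3-only region to 29.3%, a Bcl11b-only region to 10.1%, and a region of each factor, shared or apart, to 20.4%. Foxp3-only regions alone were found at 4058 genes, shared regions alone at 1892 and Bcl11b-only regions alone at 972. Shared and Foxp3-only regions stood together at 1346 genes, and all 3 classes at 310. Of the 9504 genes, 5635 (59.3%) had 1 region and so could carry only 1 class. Of the 3869 with 2 or more, 1287 (33.3%) carried 1 class and 2582 (66.7%) several. At 693 genes each factor had its own regions and none was shared. Of the 2175 regions at the 360 genes with 5 or more regions, 194 (8.92%) were Bcl11b-only, against 909 (16.1%) of the 5635 regions that were the only one of their gene.

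At the 35 genes chosen for description, 71 of 171 regions were shared (41.5%), 89 were Foxp3-only and 11 were Bcl11b-only. Of these 71 shared regions, 25 were listed for both factors elsewhere in the series, 36 for Foxp3 alone and 10 for Bcl11b alone. Support is not named for every gene below, so a shared region there may be of any of these kinds. The members and lists were chosen with results of these data known, so their shares describe the genes and support nothing further.

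Genes that define Treg had 77 regions, of which 39% (28.8 to 50.1) were shared, against 28.3% of all regions. Foxp3-only regions made up 55.8% and Bcl11b-only regions 5.19%, against 56.8% and 14.9% of all regions. Of 25 such genes 24 (96%) had any region, against 43.4% of all protein-coding genes. Of 25 Treg signature genes, 16 (64%, against 17.3% of all protein-coding genes) had a shared region. A Foxp3-only region was assigned to 19 (76%, against 29.3%) and a Bcl11b-only region to 4 (16%, against 10.1%), with 30, 43 and 4 regions in all. Foxp3 itself had 1 region, shared, inside the gene at chrX:7583933-7584227, 3.6 kb past the nearest of its starts, and both factors were listed there again elsewhere. Il2ra, the alpha chain of the IL-2 receptor, had 4 shared regions at 7.65 kb and 0.114 kb before its start and 8.93 kb and 10.7 kb after it. The 2 inside the gene (chr2:11651574-11651875 and chr2:11653334-11653671) were listed for both factors elsewhere, while the 2 before the start were listed there for Foxp3 alone. Its 2 Foxp3-only regions lay 16.7 and 6.58 kb before the start, so the shared regions were those nearer the start and inside the gene, with 1 exception at 7.65 kb.

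Ctla4, the coreceptor by which Treg restrain costimulation, had 3 shared regions at 10.4 kb and 0.07 kb before its start and 4.45 kb after it, and 1 Foxp3-only region 7.58 kb after the start. Only the shared region at 4.45 kb (chr1:60913292-60913648) was listed for both factors elsewhere. Its neighbours on chromosome 1 are other receptors of the same family. Cd28, the costimulatory receptor that Ctla4 opposes, had 2 shared regions and 1 Foxp3-only region, and both shared ones were listed elsewhere for Foxp3 alone. Icos, an inducible costimulator, had 2 shared and 3 Foxp3-only regions. In Icos a shared region (chr1:60984882-60985079) ended just before a Foxp3-only region (chr1:60985140-60985489). That shared region was listed elsewhere for Bcl11b alone, and the other shared region of Icos for Foxp3 alone. Tnfrsf18, which encodes the receptor GITR, had 3 shared regions and no other kind, and the adjacent Tnfrsf4, which encodes OX40, had 1 shared region 0.126 kb from its start. Of these, only the Tnfrsf18 region at chr4:156021358-156021702 was listed for both factors elsewhere, and the others for Foxp3 alone.

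The Ikaros family genes of Treg differed in class. Ikzf2, which encodes Helios, had 5 Foxp3-only regions and none of Bcl11b. Ikzf4, which encodes Eos, had 2 shared regions and 1 Bcl11b-only region. Both shared Ikzf4 regions were listed elsewhere for Foxp3 alone. Il10, the gene of an anti-inflammatory cytokine, had 2 shared and 4 Foxp3-only regions. Neither shared Il10 region was listed elsewhere for both factors in WT Treg.

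**Figure D4:**
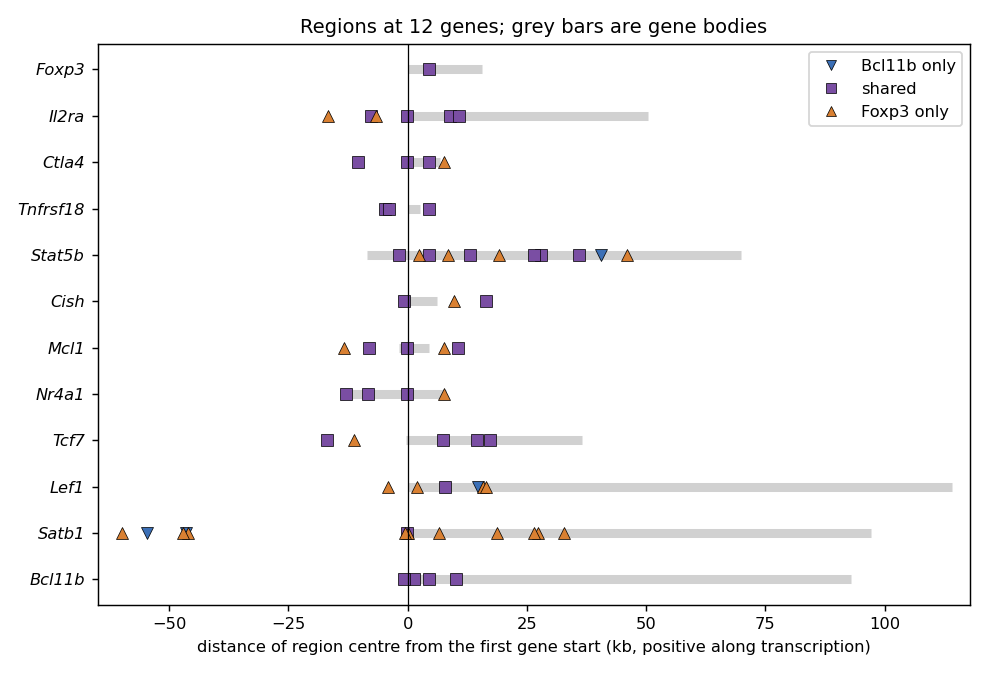
Distance of region centres from the first start that the promoter table gives for 12 genes (kb, positive along transcription), with grey bars for gene bodies and symbols for the class of each region. Foxp3, Tnfrsf18 and Bcl11b carry shared regions only, Satb1 carries Foxp3-only regions along its first 32.9 kb and a group of Bcl11b-only and Foxp3-only regions 46.1 to 59.9 kb before its start.

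Genes of the naive and T lineage program had a mix of classes near that of all regions. Their 100 regions were 28% shared, 63% Foxp3-only and 9% Bcl11b-only, against 28.3%, 56.8% and 14.9% of all regions. Of 23 such genes, 17 had a shared, 18 a Foxp3-only and 7 a Bcl11b-only region, against 17.3%, 29.3% and 10.1% of all protein-coding genes. Foxp1 held 14 and Satb1 10 of the 63 Foxp3-only regions. Foxp1, a forkhead factor of quiescent T cells, had 14 Foxp3-only regions and 1 shared region (chr6:99266435-99266654), which lay 0.029 kb before 1 of its starts. It had more regions than any other gene. Satb1, a chromatin organiser, had 10 Foxp3-only, 1 shared and 2 Bcl11b-only regions. Its shared region (chr17:51833394-51833591) lay 0.202 kb before a start and almost touched a Foxp3-only region over that start (chr17:51833086-51833391). The shared region of Satb1 was listed elsewhere for Bcl11b alone, and that of Foxp1 for Foxp3 alone. Before the start of Satb1, a Bcl11b-only region (chr17:51879561-51879758) and a Foxp3-only region (chr17:51879272-51879547) lay side by side 46.4 and 46.1 kb away. In both places regions of different class had edges that almost met without being listed as 1 shared region.

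Tcf7, which encodes TCF1, showed the opposite mix, with 4 shared regions and 1 Foxp3-only region. Of its shared regions, 3 lay inside the gene 7.05, 14 and 16.8 kb from a start and 1 lay 16.9 kb before it. Lef1, the related factor gene, had 1 shared, 4 Foxp3-only and 1 Bcl11b-only region. Foxo1, a factor that keeps T cells quiescent, had 4 Foxp3-only regions, 0.293 and 5.66 kb before its start and 4.34 and 10.3 kb after it. Bcl11b had 4 regions, all shared, at 0.76 kb before and 1.37, 4.53 and 10.2 kb after a start, of which the nearest 2 were listed elsewhere for Foxp3 alone. Runx1, whose product partners Foxp3, had 2 shared, 3 Foxp3-only and 2 Bcl11b-only regions. Bach2 had 2 shared and 3 Foxp3-only regions, and Ets1 had 1 and 2. Klf2, which controls exit from lymph nodes, had 2 shared and 3 Foxp3-only regions, with 1 shared region 0.021 kb from its start.

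Genes of the IL-2 and STAT5 pathway had more shared than Foxp3-only regions. All 20 had a region (against 43.4% of all protein-coding genes) and 14 had a shared one (70%, against 17.3%). Their 66 regions were 33 shared, 29 Foxp3-only and 4 Bcl11b-only. Shared regions were thus 50% (38.3 to 61.7) of the list's regions, against 28.3% of all regions. Stat5b, which transmits the IL-2 signal, had 6 shared, 4 Foxp3-only and 1 Bcl11b-only region spread over the gene. Il2rb, the receptor beta chain, had 3 shared regions and no other, whereas the X-linked gamma chain gene Il2rg had 1 Foxp3-only region. Cish and Socs1, feedback inhibitors of cytokine receptors, had 2 shared regions each, beside 1 and 3 Foxp3-only regions. The shared regions of Cish were listed elsewhere for both factors, and those of Socs1 for Foxp3 alone. Socs3 had 3 shared regions and 1 Foxp3-only region, and the kinase gene Pim1 had 2 shared regions.

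Survival genes split by member. Mcl1 had 3 shared and 2 Foxp3-only regions, the widest of them (chr3:95658378-95658817) over the promoter printed above. Bcl2, by contrast, had no shared region but 2 Bcl11b-only regions 9.87 and 19.4 kb from its start and 3 Foxp3-only regions 0.201, 6.84 and 153 kb from it. Cflar, an inhibitor of death receptor signalling, had 7 Foxp3-only regions. Birc2, Birc3, Casp8 and Bbc3 had 2 shared regions each and none of another class. Over the 19 apoptosis genes the regions were 6 Bcl11b-only, 15 shared and 22 Foxp3-only.

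Each of the 31 antigen receptor signalling genes on the list had a region, against 43.4% of all protein-coding genes. A shared region was assigned to 26 (83.9%, against 17.3% of all genes), a Foxp3-only region to 26 (83.9%, against 29.3%) and a Bcl11b-only region to 7 (22.6%, against 10.1%), with 42, 57 and 9 regions. Lck, the kinase that starts the signal, had 2 shared regions, 1 of them 0.252 kb before a start and listed for both factors elsewhere. The inhibitory receptor gene Cd5 had 5 shared and 2 Foxp3-only regions. Themis, an adaptor of thymocyte selection, had 3 Bcl11b-only and 2 Foxp3-only regions, the most Bcl11b-only regions on this list. Cd4 had 1 Foxp3-only region. Nr4a1 and Egr1, immediate early genes downstream of the receptor, had 3 and 4 shared regions. Those of Nr4a1 lay 12.8, 8.27 and 0.181 kb before the start named for the printed promoter, and all 3 were listed for both factors elsewhere.

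Factors downstream of the receptor also differed within families. Over 30 genes of NF-kB, NFAT, AP-1 and related factors the regions were 9 Bcl11b-only, 42 shared and 58 Foxp3-only. Nfatc1 and Nfatc2 had 4 and 6 Foxp3-only regions and none of Bcl11b. Irf1 had 4 shared regions and no other, while Irf4 had 7 Foxp3-only and 1 Bcl11b-only and Irf8 had 5 and 1. Jund, Junb, Nfkb2 and Nfkbia had shared regions only, 3 for Jund and 2 for each of the others. Fos had 3 shared and 3 Foxp3-only regions and Fosb 1 and 5.

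Over 25 chemokine receptor and homing genes 17 had a shared region (68%, against 17.3% of all genes). Their regions were 4 Bcl11b-only, 33 shared and 37 Foxp3-only, so 44.6% (33.8 to 55.9) were shared, against 28.3% of all regions. Ccr7, which draws T cells into lymph nodes, had 5 shared and 2 Foxp3-only regions, and Cxcr5, the follicle receptor, had 4 shared ones. Itga4, an integrin chain, had 3 shared and 3 Foxp3-only regions that alternated along the gene, while Ccr8 had 4 Foxp3-only regions. S1pr1, which lets T cells leave lymph nodes, had 2 shared, 2 Foxp3-only and 1 Bcl11b-only region. In the TNF receptor superfamily, Tnfrsf1b, which encodes TNFR2, had 5 shared regions and 1 Foxp3-only region, whereas Cd40lg had 7 Foxp3-only regions. Smad3, a mediator of TGF-beta signals, had 5 shared regions and 1 Foxp3-only region, and the receptor gene Tgfbr2 had 3 and 6.

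Of 22 genes of helper T cell effector programs 6 had a shared region (27.3%, against 17.3% of all protein-coding genes). A Foxp3-only region was assigned to 13 of them (59.1%, against 29.3%). Their regions were 2 Bcl11b-only, 9 shared (22%, 12 to 36.7) and 30 Foxp3-only (73.2%), against 28.3% shared and 56.8% Foxp3-only among all regions, and the shared interval holds the share of all regions. Gata3 and Ifng had 2 Foxp3-only regions each, and Rora had 6. No region was assigned to Il4, Il5, Il13, Il17a, Il17f, Il21 or Tbx21. Prdm1 had 1 shared and 2 Foxp3-only regions. Batf, Bcl6 and Bhlhe40 had 2 shared and 1 Foxp3-only region each.

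Bcl11b-only regions were spread thinly. The most at any gene was 4, at Hbs1l and Slain1, and 3 were assigned to Acin1, Dse and Fdx1 among others. The list of NuRD and other corepressor genes had the highest Bcl11b-only share among the lists with at least 20 regions, 5 of 26 (19.2%), against 14.9% of all regions, with 1 each at Mbd2, Mbd3, Ncor1, Rcor1 and Sin3a. Notch pathway genes had 7 of 46 (15.2%), 3 of them at Rbpj, the pathway's DNA-binding effector, and 2 at Maml2, its coactivator. Genes of Foxp3's partner proteins had 12 of 93 (12.9%). These counts are small, and shares of this size lie near that of all regions.

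Ribosomal protein genes had the largest share of shared regions of the lists drawn, at 45 of 75 (60%, 48.7 to 70.3). Of 80 such genes 42 had a shared region (52.5%, against 17.3% of all protein-coding genes). Most of their regions lay at promoters, as 46 of 55 placed regions (83.6%) were within 1 kb of a start, against 45.3% of all placed regions. Of their placed shared regions 29 of 30 were, against 60.1% of all, and of the Foxp3-only ones 17 of 22, against 46.8% of all. Of 35 ribosomal promoter windows with a shared region, 18 held the ETS motif, against 47.9% of all shared windows. In shared windows of other lists the motif was in 0 of 4 for the Treg signature, 0 of 4 for homing and 1 of 8 for the IL-2 and STAT5 pathway. It was in 2 of 10 for antigen receptor signalling and 2 of 17 for NF-kB and related factors, but in 5 of 8 for apoptosis and survival. The respiratory chain had 14 of 33, helper T cell effectors 1 of 1, Notch 1 of 2 and housekeeping genes 1 of 5. Naive and T lineage genes and Foxp3 partner genes had 1 of 6 each. Suppressive mediators had 0 of 3, corepressors 0 of 2, and the TNF receptor superfamily and TGF-beta lists 0 of 1 each. Respiratory chain genes had 35 shared regions of 73 (47.9%), and all 28 placed shared regions were at a start. A shared region was assigned to 33 of 96 genes (34.4%, against 17.3% of all protein-coding genes). With genes taken as the body and 10 kb on each side it was 53 genes. For the immune lists the share at a start was lower, 23.4% for the Treg signature and 22% for antigen receptor signalling, against 45.3% of all placed regions.

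Marker genes of other lineages were read for shared regions. Any region was assigned to 5 of 12 B cell, 5 of 12 CD8 and NK, 3 of 12 neural and 2 of 12 myeloid markers, against 43.4% of all protein-coding genes. Among 12 B cell, 12 myeloid and 12 neural markers none had a shared region, and among 12 CD8 and NK markers 1 did, Ccl5. A shared region was assigned to 17.3% of all protein-coding genes, and no test was made against that share. With genes taken as the body and 10 kb on each side, a shared region was found at 2 B cell, 2 myeloid, 1 neural and 0 CD8 and NK markers. Single-factor regions numbered 6 at B cell, 3 at myeloid, 4 at CD8 and NK and 3 at neural markers. Cd14, Cd8a and Olig2 had none.

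**Figure D5:**
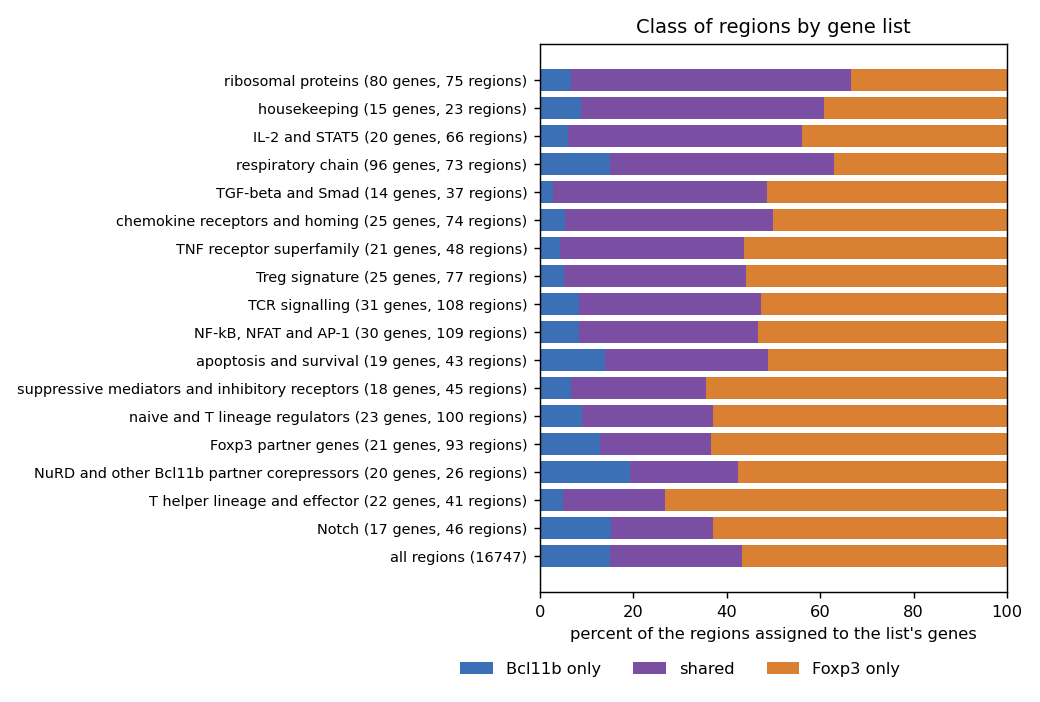
Class of the regions assigned to each gene list with at least 20 regions, as percent of the list's regions, sorted by the share of shared regions, with all regions in the bottom bar. Ribosomal protein genes are at the top with 60% shared and helper T cell effector and Notch genes at the bottom with 22% and 21.7%, against 28.3% of all regions.

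The X chromosome held few Bcl11b regions. It carried 317 regions, of which 8 were Bcl11b-only, 34 shared and 275 Foxp3-only (86.8%). On the autosomes the Foxp3-only share ranged from 53% on chromosome 3 to 61.1% on chromosome 19, the shared share from 24% on chromosome 18 to 33.1% on chromosome 11, and the Bcl11b-only share from 10.9% to 21.5%. X-linked regions were 0.581% (0.43 to 0.784) of the Bcl11b set and 2.17% (1.94 to 2.42) of the Foxp3 set, while 4.41% of protein-coding genes are X-linked. The low share was also seen for WT Treg Bcl11b in the lists drawn against the other cells, at 0.875% and 0.673%, which come from the same libraries. It was 0.41% (0.216 to 0.778) for Bcl11b in the Foxp3-deficient KIKO cells and 1.46% (1.17 to 1.82) in the cells labelled Tn, against 1.83% for Foxp3 in Treg without Bcl11b. X-linked genes with a shared region included Foxp3, the corepressor genes Bcor and Bcorl1, the adaptor gene Sh2d1a and the glucocorticoid-induced gene Tsc22d3. The Foxp3-only regions of Cd40lg and Il2rg are also on this chromosome.

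The classes were also listed in Treg that lack Bcl11b, which show where Foxp3 was called without it. That comparison uses the same WT Foxp3 libraries. Of the shared regions listed there for WT Foxp3, 1253 of 4094 (30.6%) were specific to WT cells, and of the Foxp3-only regions 3544 of 9293 (38.1%) were. Of the 2497 Bcl11b-only regions, 65 were listed for Foxp3 in that comparison, 27 of them in both cell types and 38 in the cells without Bcl11b. Of the regions listed there for WT Foxp3, 12 of 15 at Foxp1 and 7 of 10 at Satb1 were specific to WT cells, against 0 of 5 at each of Socs1 and Runx1, 0 of 3 at each of Cish and Tnfrsf18, and 1 of 6 at Il2ra. These genes were picked after their values were seen. Other genes lay between, such as Foxo1 with 2 of 4 and Mcl1 with 2 of 5, or high, such as Ccr7 with 5 of 6. Most WT-specific regions at Foxp1 and Satb1 had 220 bp and all Il2ra regions were wider, while Socs1 had both kinds. No test was made.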

How the data were processed

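The authors deposited 12 lists of regions, 3 for each comparison of a pair of groups, each with chromosome, start and end and no header. The values are positions, so no count, signal, score or p-value of theirs was used. The submitters' processing notes name mm10 and, with no roles, HOMER 4.10.1, HISAT2 2.1.0, deepTools, SAMtools 1.3, FastQC, cutadapt 1.12 and Trim Galore 0.4.2. Class rule, call threshold, pooling and depth were not stated there. No list is named in the label of the third WT Treg Bcl11b library, and the shared list is missing from that of the second WT Foxp3 library.

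Repeated rows (81) were dropped, and no regions overlapped. Genes, starts and promoters came from RefSeq tables of GRCm38.p6. Each region was given to a protein-coding gene, the one closest to the region's centre within 100 kb, and 99.1% could be. Tests are two-sided Fisher's exact tests with conditional odds ratios, in Python 3.11.15 with scipy 1.17.1, numpy 2.4.6 and pandas 2.3.3, and were tested on simulated data.

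Members, gene lists and tests were chosen with earlier results of these data known. Described by rule are 35 genes, the 8 with most regions in every class and up to 4 per list with most regions. Other list members were named after their values were seen. Of the 21 lists, those not counted in full in the report are housekeeping genes (2 Bcl11b-only, 12 shared and 9 Foxp3-only regions), suppressive mediators (3, 13 and 29), the TNF receptor superfamily (2, 19 and 27), TGF-beta and Smad (1, 17 and 19), Notch (7, 10 and 29), Foxp3 partner genes (12, 22 and 59) and corepressors (5, 6 and 15).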

Additional observations from a re-analysis of the deposited data

How the results depend on the processing

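No paired analysis was possible because the lists are per pair of groups and hold no value per replicate. Leaving out replicates could not be run either, nor could motifs in the central 200 bp of regions, whose sequence was not used here. The shared percent depended on which regions were kept and on what counts as shared. Among regions wider than 220 bp it was 95.8% of Bcl11b and 44.9% of Foxp3 regions. That cut itself sorts by class, since 6.37% of Bcl11b-only, 76.4% of shared and 46.8% of Foxp3-only regions are that wide. It is therefore no check of the shared percent. Among regions listed again elsewhere it was 48.5% and 20.2%. There a shared region had to be listed for both factors, and a single-factor region only for its own. That filter is stricter for shared regions, so these shares are not like for like with the others. With a region of the other factor within 2 kb counted as shared it was 69.2% and 40%, and within 500 bp 34.5% of Foxp3 regions. Of 26 alternative odds ratios 25 kept their direction and side of the threshold, and the other was that of Bcl11b-only regions inside genes among regions wider than 220 bp, at 1.42. The odds ratio at a start ranged from 0.0575 to 0.611 for Bcl11b-only and from 0.406 to 0.671 for Foxp3-only regions.

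The percent of Bcl11b-only regions near Foxp3 was 10.8% within 2 kb, 71% within 50 kb and 32.8% with regions also listed elsewhere (shared ones for both factors). For Foxp3-only regions near Bcl11b these were 10.1%, 60.9% and 18.2%, and 16.9% among regions wider than 220 bp. Of 126 gene list counts under other assignments 113 stayed within 1.5 times, and of 24 motif shares 7 stayed inside their interval; the looser ETS spelling GGAAG was found in 84.1% of shared and 76.5% of Foxp3-only windows. The cause of these moves was not tested. Depth per library is unknown.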

Other observations

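MicroRNA genes also carried regions of each class, and the microRNAs of T cells below were chosen after the lists were seen. Of 1005 mouse hairpins in the RefSeq table, 33.8% had a region within 10 kb, 14.6% a shared, 23.1% a Foxp3-only and 5.87% a Bcl11b-only one. Of 48 T cell microRNAs found in that table, 25 had a region, 14 a shared, 17 a Foxp3-only and 1, Mir128-1, a Bcl11b-only region. The lines give mature sequences from RefSeq (GRCm38.p6), 5′ to 3′, with the seed, bases 2 to 8, in capitals, for microRNAs near shared regions (the first 4) and near Foxp3-only regions (the last 3).
mmu-miR-142a-3p: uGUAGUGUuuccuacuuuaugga
mmu-miR-132-3p: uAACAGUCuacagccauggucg
mmu-miR-212-3p: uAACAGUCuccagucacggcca
mmu-miR-27a-3p: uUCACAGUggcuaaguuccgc
mmu-miR-155-5p: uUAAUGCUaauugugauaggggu
mmu-miR-21a-5p: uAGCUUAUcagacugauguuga
mmu-miR-17-5p: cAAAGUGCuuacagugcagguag

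Mir142, a microRNA gene of blood cells, had 3 shared regions 7.19 and 5.09 kb before and 2.91 kb after its hairpin and 1 Foxp3-only region 1.35 kb before it. Only the shared region of Mir142 at 7.19 kb was listed elsewhere for both factors. Mir132 and Mir212, neighbours on chromosome 11 that share the seed AACAGUC, had the same 2 shared regions, 1 of them (chr11:75173687-75173906) beginning inside the Mir132 hairpin. Both of these were listed elsewhere for Foxp3 alone. The cluster of Mir23a, Mir27a and Mir24-2 had shared regions only, all listed elsewhere for both factors. Mir155, which Treg need for competitive fitness, had 1 Foxp3-only region 0.828 kb before its hairpin. Mir21a had 3 Foxp3-only regions 2.85, 6.17 and 9.07 kb before it, inside the host gene Vmp1, and Mir17, the first of its cluster, had 1 Foxp3-only region 3.58 kb before it. Neighbouring hairpins share regions, so these are not independent counts.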
